A study of Homo sapiens with 4 samples.

Results

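The genes described here are 39 genes of DNA replication and of entry into S phase (G1/S), picked by gene symbol from the 44591 genes in each expression table and grouped into 9 roles, from origin licensing to chromatin assembly. All 39 were found in every table, and all 39 passed the filter on low counts that left 23942 genes for testing. The rule that picks them uses names only and no measured value, although it was written with results of these data known. The libraries are labelled HepG2, the name of a long-established line from a human liver tumour. Cells at about 70% confluency received siNC, a control siRNA, or siRNA against LINC01186, the long noncoding RNA called SALIS in the study. They spent 6 h in medium without serum and then 24 h in medium with 10% serum before Trizol extraction of RNA. Each condition had 2 libraries, numbered replicate 1 and replicate 2, so that 4 libraries entered every comparison. The siNC oligo was shared by the replicates, whereas the siSALIS oligo differed between them, and which one a library received is not in its label.

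Cells copy their DNA once per cycle from origins that are loaded in G1 and fired in S phase. The origin recognition complex, CDC6 and CDT1 load the MCM helicase. CDC45, the GINS complex and MCM10 turn the helicase on, and polymerases then copy the strands on a clamp, PCNA, that the RFC complex loads. Most of these genes are targets of E2F transcription factors, which are held back by retinoblastoma proteins until cyclin-dependent kinases release them. Their mRNA is therefore high in cycling cells and low in resting cells, and it is commonly read as a sign of proliferation.

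The 4 libraries held 14968958 to 17297245 counts. SALIS had 15 and 14 counts in the siNC libraries of replicates 1 and 2, and 12 and 14 counts in the libraries labelled siSALIS (log2 fold change -0.12, SE 0.53, adjusted p = 0.999846 by edgeR's quasi-likelihood test), so the targeted gene did not check the labels at this depth. The libraries labelled HepG2 held few reads of genes that mark liver cells, so these genes did not bear out the label. Whether the label is right was not tested. ALB, which encodes albumin, had 0 counts in both libraries of replicate 1 and 15 and 14 counts in siNC and siSALIS of replicate 2. APOA1 had 0 counts in both libraries of replicate 1 and 21 and 20 counts in replicate 2, and TTR had 0 counts in all libraries but siSALIS replicate 2, with 3. HNF4A, a liver transcription factor, had 79, 83, 161 and 188 counts in siNC replicate 1, siSALIS replicate 1, siNC replicate 2 and siSALIS replicate 2. Of 8 hepatocyte markers tested, 6 were higher in replicate 2 than in replicate 1 at an adjusted p under 0.05 and 0 were lower. The summed level of these 8 was 4.90 to 6.30 CPM (counts scaled to a common library size of 1000000) in replicate 1. It was 15.2 to 17.1 CPM in replicate 2, and HNF4A made up most of it in every library. Of 10 markers of blood, endothelial cells and fibroblasts, COL1A1 reached 790 counts and CD3E had 0 counts in every library. The summed level of the 8 that were tested was 30.3 to 34.9 CPM in replicate 1 and 47.2 to 57.5 CPM in replicate 2, and COL1A1 alone passed the test, higher in replicate 2. The part of these differences in the results below was not tested.

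Promoters of the list were read first, because E2F sites are the feature these genes are best known to share. RefSeq promoter windows, from 250 bases before to 50 bases after the start of transcription, were found for 33 of the 39 members (build GRCh38.p14, not the build of the expression tables). Both strands were searched for the 4 sequences TTTCCCGC, TTTGGCGC, TTTCGCGC and TTTGCCGC, which can overlap one another, and 18 of the 33 members (54.5%) held at least 1 of them. Over all 27305 genes with a window the share was 3.99%. The sequence CCAAT, which is bound by NF-Y, was in 66.7% of the members and in 39.7% of all genes. Below are the stretches around the first match for the 7 members whose match lies outside annotated exons, so that no untranslated region is printed. Capitals mark the match, and each stretch reads 5′ to 3′ on the strand of its gene.

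PCNA, chr20:5126639-5126716, minus strand: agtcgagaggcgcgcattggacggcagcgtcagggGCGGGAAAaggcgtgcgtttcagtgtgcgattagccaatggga
MCM3, chr6:52284882-52284951, minus strand: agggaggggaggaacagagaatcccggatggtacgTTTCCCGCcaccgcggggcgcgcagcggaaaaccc
UHRF1, chr19:4909949-4910026, plus strand: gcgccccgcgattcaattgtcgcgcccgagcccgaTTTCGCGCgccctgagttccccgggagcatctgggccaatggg
E2F1, chr20:33686405-33686453, minus strand: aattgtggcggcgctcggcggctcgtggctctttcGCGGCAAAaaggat
MCM6, chr2:135876553-135876630, minus strand: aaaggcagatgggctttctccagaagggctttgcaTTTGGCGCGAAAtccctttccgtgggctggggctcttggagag
CDC25A, chr3:48188419-48188496, minus strand: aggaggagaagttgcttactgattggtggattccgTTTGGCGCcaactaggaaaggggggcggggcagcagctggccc
POLA1, chrX:24693746-24693823, plus strand: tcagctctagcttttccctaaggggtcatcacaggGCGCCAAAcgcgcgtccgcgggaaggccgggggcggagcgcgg

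A match describes letters in a window and does not show that a factor binds there. Among the list's neighbours in the cell cycle, the E2F sequences were in 40.0% of 35 other replication genes, 16.7% of 24 further G1/S regulators and 14.3% of 21 genes of G2 and mitosis (G2/M) that had a window. CCAAT was in 54.3%, 45.8% and 81.0% of the same groups.

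All members were well expressed. Their counts ran from 208 to 7995 per library, and counting error alone is 6.93% at the lowest of these. Compared per length, in the TPM that the authors deposited, the highest members were TK1 at 265 ± 15.9 TPM, MCM2 at 253 ± 21.6 and MCM7 at 249 ± 27.3 (SD over all 4 libraries). FEN1 followed at 214 ± 9.96 TPM and PCNA at 174 ± 0.955. The first 3 lay within each other's spread. The lowest were GINS1 at 18.1 ± 2.48 TPM, CCNE2 at 17.4 ± 1.72 and GINS3 at 14.4 ± 2.53. GINS1 and CCNE2 lay within each other's spread, and GINS3 was below both in every library. The median member had 68.2 TPM, against 23.2 for all genes with a mean of at least 5 CPM. The list took 0.509% of all counts in siNC replicate 1, 0.538% in siSALIS replicate 1, 0.490% in siNC replicate 2 and 0.523% in siSALIS replicate 2.

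Some of these levels are uncertain, since exons of 16 members share bases with another gene in the GENCODE release 29 annotation. For 14 members the other gene lies on the opposite strand, which the library kit named in the study's methods does not mark. RPA3 shares 70 exon bases with UMAD1 in this way, TYMS 967 with ENOSF1 and CCNE2 1629 with INTS8. RRM2 shares 1077 with AC007240.1 on its own strand. How such reads were counted is not given in the sources used here.

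**Figure D1:**
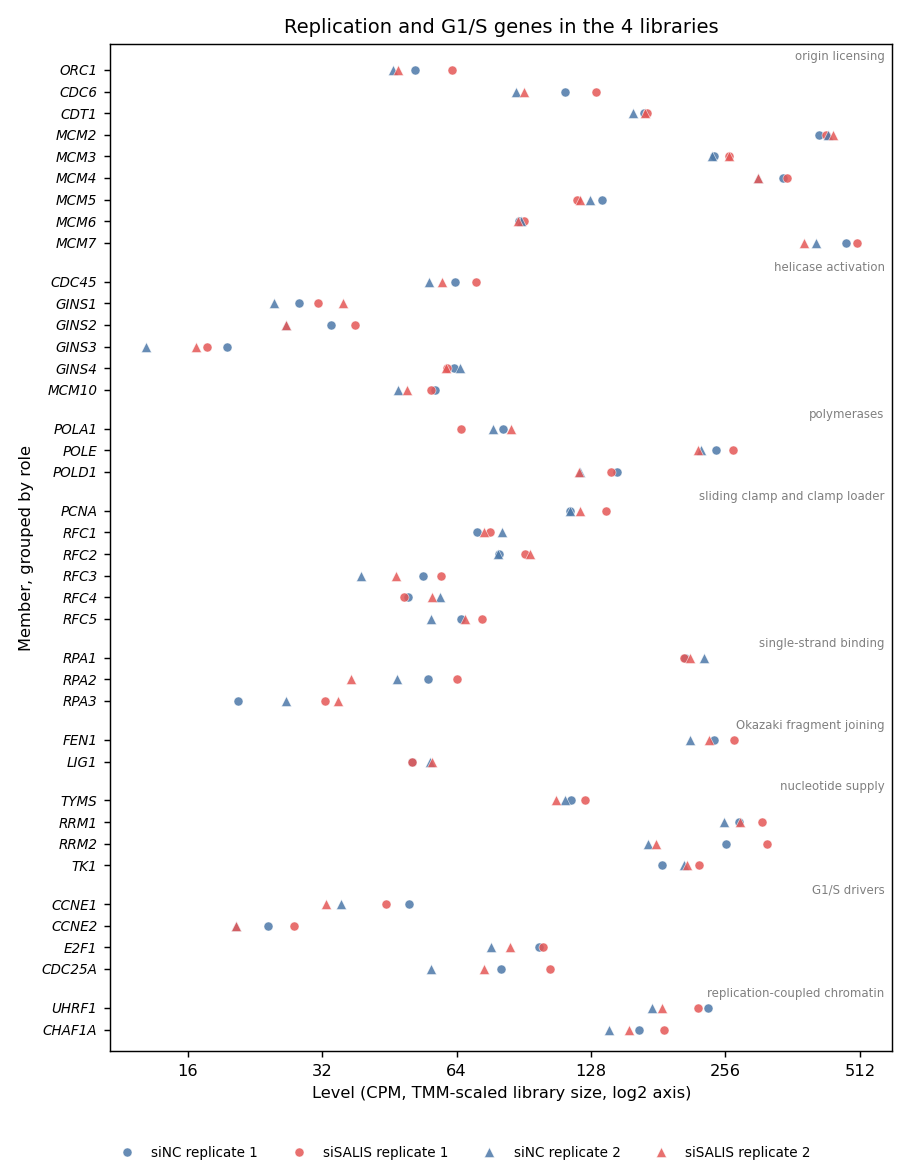
Level of each of the 39 members in each of the 4 libraries, in CPM on a log2 axis, with members grouped by role; circles are replicate 1, triangles replicate 2, blue siNC and red the libraries labelled siSALIS. For RRM2, CDC6, CCNE1 and RPA2 both triangles lie to the left of both circles, and for RPA3 both red symbols lie to the right of both blue ones.

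The first comparison asks whether the libraries labelled siSALIS differ from siNC in this proliferation readout. No member passed the test. None of the 39 had an adjusted p under 0.05 in edgeR's quasi-likelihood test (adjusted by the Benjamini-Hochberg method over the 23942 genes, like every adjusted p below), and none passed in DESeq2's Wald test. Over all 23942 genes the count was also 0 (0.0%) in edgeR and 1 in DESeq2. At an unadjusted p under 0.05, 1 member passed in edgeR and 0 in DESeq2, with 289 genes (1.21%) passing in edgeR. With the limits of the study, under 0.05 for the unadjusted p and past 1 for the size of the log2 fold change, 0 members and 181 genes (0.756%) passed. The 95% intervals of all 39 members lay between -1 and 1 on the log2 scale, the lowest bound being -0.69 for CCNE1 and the highest 0.98 for RPA3. A halving or a doubling thus lay outside every member's interval. RPA3 alone had an interval that left out 0, before adjustment. For the other members, changes smaller than the bounds could not be told from the spread between libraries in this fit. It had no term for the replicate number, so that spread included any difference between replicates. With the replicate number as a block, 278 genes and 1 member, RPA3, had an adjusted p under 0.05. The numbers are not known to pair the samples. Without that block, the members' median log2 fold change was 0.08, with 29 above 0 and 10 below. The median over all genes tested was 0.0045. Without siSALIS replicate 1 the members' median was -0.019.

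Within each replicate number, siSALIS was then set against siNC, 1 library against 1, with no test. The median difference of the members was 0.12 in replicate 1 and 0.060 in replicate 2 (log2 CPM), against 0.0065 and -0.011 over the 11779 genes with a mean of at least 5 CPM. Their summed level was 5261 CPM in siNC and 5636 CPM in siSALIS of replicate 1, a difference of 7.12%. In replicate 2 it was 4798 CPM and 4939 CPM, a difference of 2.92%. On the deposited TPM scale both medians had the opposite sign, -0.14 and -0.027, and there the median of all 11779 genes was itself shifted to -0.24 and -0.095. Relative to that shift the members stood 0.10 and 0.069 above the other genes in TPM, and 0.11 and 0.071 above them in CPM. Of the 39 members, 20 were higher in siSALIS in both replicates, 6 were lower in both and 13 went opposite ways. Of the 11779 genes, 3388 were higher in both, 3422 were lower in both and 4969 went opposite ways.

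Past a difference of 0.3 (23.1% on the linear scale), 3 members were higher in replicate 1, with 7.0% of the 11779 genes past it, and 1 was lower, with 7.78%. In replicate 2, 4 members were higher (9.31% of genes) and 1 was lower (13.9%). RPA3 and CDC25A were past it in both replicates, as were 1.53% of genes. Both siSALIS libraries lay above both siNC libraries for 9 members (12% of genes), namely RPA3, RFC2, RFC5, GINS1, RRM1, MCM3, PCNA, CDT1 and TK1. They lay below for MCM5 and GINS4 (11.9% of genes). No test was made of the counts.

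**Figure D2:**
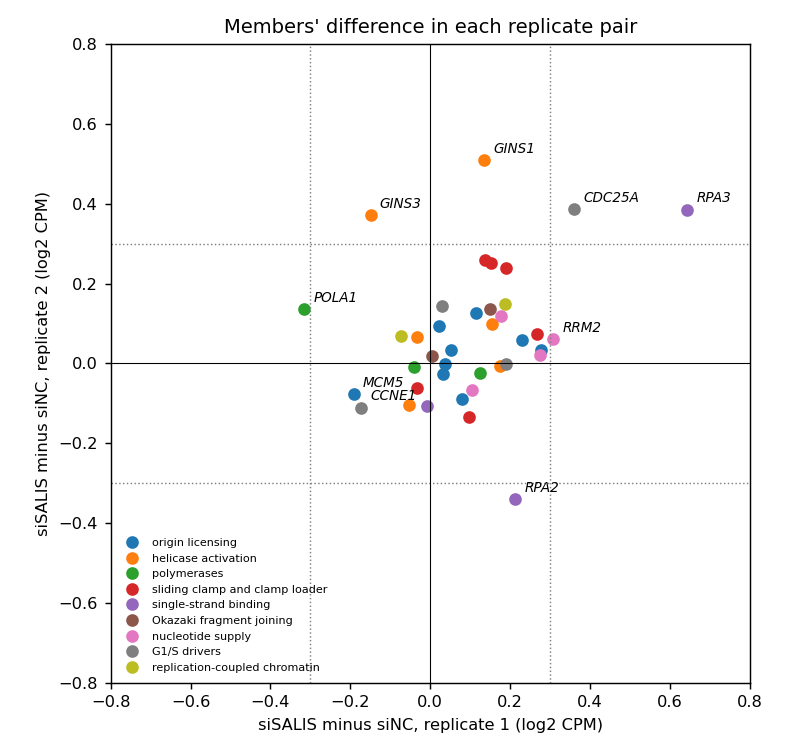
Difference between siSALIS and siNC (log2 CPM) of each of the 39 members in replicate 1 (x axis) and replicate 2 (y axis), coloured by role; dotted lines mark 0.3 and -0.3. Only RPA3 and CDC25A lie past 0.3 on both axes, while RPA2, POLA1 and GINS3 lie past a line on 1 axis with the opposite sign on the other.

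The second comparison set replicate 2 against replicate 1, with 1 siNC and 1 siSALIS library on each side and the same 4 libraries as before. Here 4 members passed an adjusted p under 0.05, all lower in replicate 2, and 0 were higher. They were RRM2, CDC6, CCNE1 and RPA2. RRM2 passed with each library left out in turn, and it alone passed without siSALIS replicate 1. CCNE1 also missed the threshold without siNC replicate 1 (adjusted p = 0.296), and CCNE1 and RPA2 missed it without siSALIS replicate 2 (adjusted p = 0.0528 and 0.116). In DESeq2's Wald test CCNE1 missed it (adjusted p = 0.0560), and with edgeR's filterByExpr RPA2 did. Among all 23942 genes 4.57% were lower and 4.44% higher, and among the 11779 genes with at least 5 CPM, to which all members belong, 8.52% were lower and 6.08% higher. The 4 of 39 are near the background of well-expressed genes. Some settings called more members, all lower in replicate 2. Treatment as a term called 9, with 2286 of 23942 genes lower. A minimum of 1 count in any library called 6, with 1598 of 30582 genes lower. The median log2 fold change of the members was -0.18, against -0.052 over the 11779 genes. Both libraries of replicate 2 lay below both of replicate 1 for 21 members, with 36.1% of genes doing so, and above them for 4 members, with 25.7% of genes. The median difference of the members was -0.18 within siNC and -0.19 within siSALIS, and 26 members were lower in replicate 2 in both. Over the 11779 genes the medians were -0.038 and -0.065, and 5119 genes were lower in both. What set the libraries of replicate 2 apart from those of replicate 1 is not in the labels, and between the siSALIS libraries the oligo differed as well. In these bulk libraries fewer cycling cells and less of each mRNA per cell cannot be told apart.

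**Figure D3:**
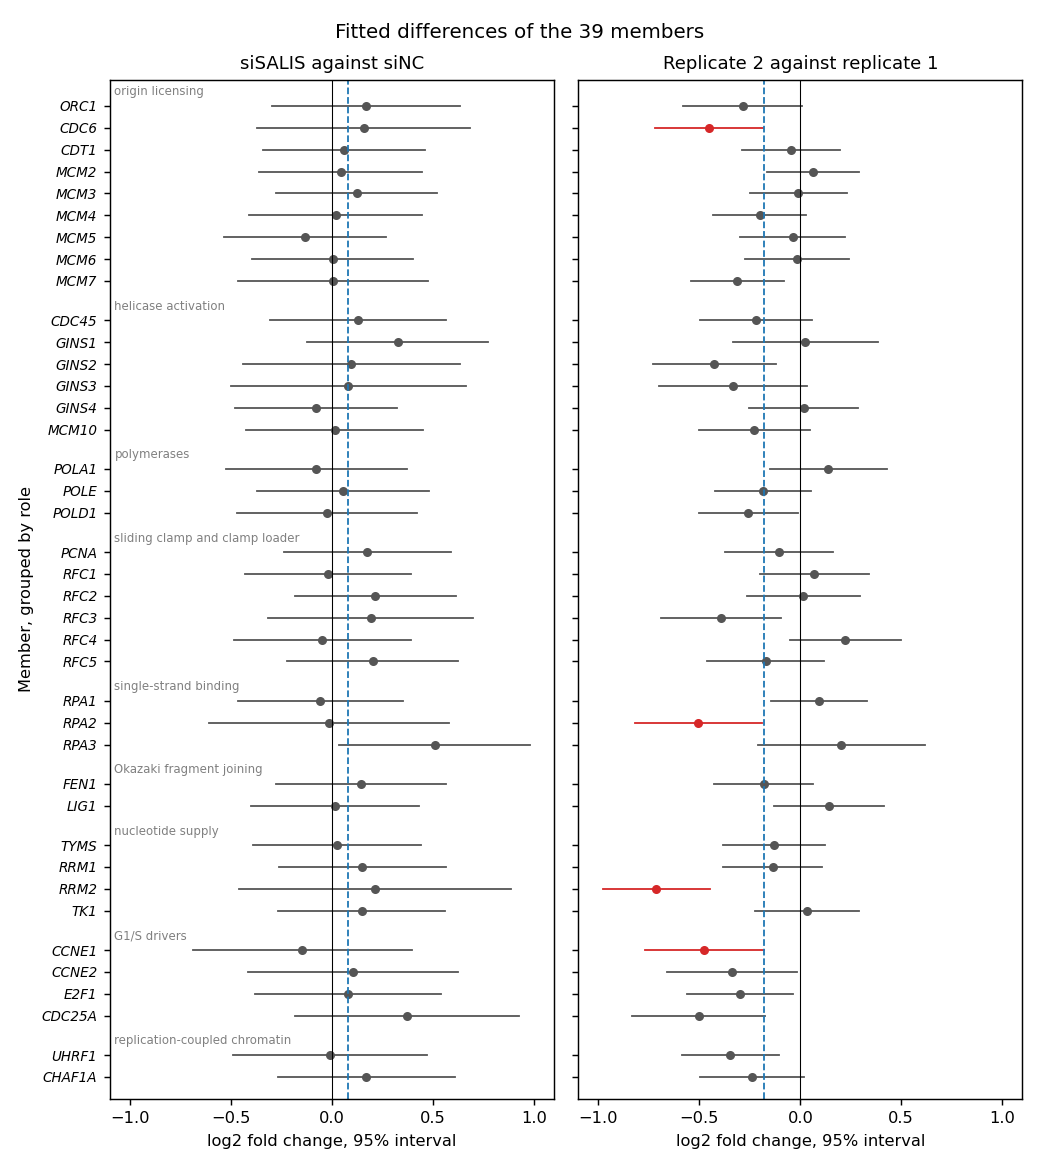
Fitted log2 fold change of each member with its 95% interval from edgeR's quasi-likelihood fit, siSALIS against siNC on the left and replicate 2 against replicate 1 on the right; red marks an adjusted p under 0.05 and the dashed line the median of the 39 members. No interval on the left is marked, and RRM2, CDC6, CCNE1 and RPA2 are marked on the right, all below 0.

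Nucleotide supply held the largest difference between replicates. RRM2, the small subunit of ribonucleotide reductase, which makes deoxynucleotides and is strongly cell cycle regulated, lies on chromosome 2 from 10262695 to 10271546 (hg19, plus strand). Its level was 256 CPM in siNC replicate 1, 317 CPM in siSALIS replicate 1, 171 CPM in siNC replicate 2 and 179 CPM in siSALIS replicate 2. Both libraries of replicate 2 were the low ones, and the siNC and siSALIS groups overlapped. Its log2 fold change was -0.71 in replicate 2 (SE 0.12, adjusted p = 0.00275), and 0.21 in siSALIS (SE 0.30, adjusted p = 0.999846). RRM1, the large subunit of the same enzyme, was at 274, 310, 255 and 276 CPM in the same order, higher in both siSALIS libraries by a narrow margin. Its log2 fold change was 0.15 in siSALIS (SE 0.18) and -0.14 in replicate 2 (SE 0.12). TYMS, thymidylate synthase, stood at 116, 124, 112 and 107 CPM, and its groups overlapped. TK1, thymidine kinase, was 0.27 higher in siSALIS in replicate 1 and 0.020 higher in replicate 2 (log2 CPM). The summed level of the 4 genes was 17.3% higher in siSALIS in replicate 1 and 3.62% higher in replicate 2.

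Origin licensing held 9 members, of which CDC6 alone passed the test between replicates. CDC6, the ATPase that brings the MCM helicase to origins (chromosome 17, 38444146 to 38459413, plus strand), was at 112, 131, 87.0 and 90.6 CPM in siNC replicate 1, siSALIS replicate 1, siNC replicate 2 and siSALIS replicate 2. Replicate 2 was low in both conditions, with no overlap between replicates and with overlap between siNC and siSALIS. The log2 fold change was -0.45 in replicate 2 (SE 0.13, adjusted p = 0.0342) and 0.16 in siSALIS (SE 0.23, adjusted p = 0.999846). CDT1, its partner in helicase loading, was at 168, 171, 159 and 169 CPM, with a difference of 0.022 and 0.094 between siSALIS and siNC in replicates 1 and 2 (log2 CPM). MCM2, a helicase subunit, was at 414, 429, 435 and 445 CPM, and replicate 2 was above replicate 1. MCM3, another subunit, was at 241, 261, 239 and 260 CPM, and both siSALIS libraries were the high ones. MCM5 was at 136, 119, 127 and 121 CPM, and both siSALIS libraries were the low ones. Their log2 fold changes in siSALIS were 0.12 for MCM3 (SE 0.18) and -0.13 for MCM5 (SE 0.18). MCM4, MCM6 and MCM7 had 0.019, 0.0029 and 0.0040. The subunits of this hexamer thus had differences of either sign in siSALIS, each smaller than its SE. Between replicates MCM7 had -0.31 (SE 0.11, adjusted p = 0.0893), MCM4 -0.20 and MCM6 -0.017. ORC1, the largest subunit of the origin recognition complex, had 0.17 in siSALIS and -0.29 in replicate 2.

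In helicase activation none of the 6 members passed either test. GINS1, a GINS subunit, was at 28.5, 31.3, 25.0 and 35.7 CPM in siNC replicate 1, siSALIS replicate 1, siNC replicate 2 and siSALIS replicate 2. Both siSALIS libraries were above both siNC libraries, by 0.14 in replicate 1 and 0.51 in replicate 2 (log2 CPM), and the log2 fold change was 0.32 (SE 0.20, adjusted p = 0.999846). GINS4, of the same complex, was at 63.3, 61.0, 65.1 and 60.5 CPM, and both siSALIS libraries were slightly below both siNC libraries. GINS3 differed by -0.15 in replicate 1 and by 0.37 in replicate 2, and GINS2 by 0.17 and -0.0072. The complex as a group of 4 genes had no common direction. GINS2 had a log2 fold change of -0.43 in replicate 2 (SE 0.14, adjusted p = 0.0772). CDC45, which rides on the helicase with GINS, had 0.13 in siSALIS (SE 0.19) and -0.22 in replicate 2 (SE 0.13). MCM10 had 0.012 and -0.23.

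The catalytic subunits POLA1, POLE and POLD1 belong to the polymerases that start DNA chains and that extend the leading and the lagging strand. Their log2 fold changes in siSALIS were -0.078, 0.055 and -0.027, with SEs of 0.19 to 0.20, and between replicates they were 0.14, -0.18 and -0.26. POLA1 was lower in siSALIS by 0.32 in replicate 1 and higher by 0.13 in replicate 2 (log2 CPM). The summed level of the group differed by 0.431% and 0.725% between siSALIS and siNC in replicates 1 and 2, the smallest differences among the 9 roles in both.

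The clamp and its loader had 4 of 6 members higher in siSALIS in both replicates. Of the 11779 genes with a mean of at least 5 CPM, 3388 were higher in both. PCNA, the ring that holds polymerases on DNA, was at 115 CPM in siNC replicate 1, 139 CPM in siSALIS replicate 1, 115 CPM in siNC replicate 2 and 121 CPM in siSALIS replicate 2. Both siSALIS libraries were the high ones, and the log2 fold change was 0.17 (SE 0.18, adjusted p = 0.999846). RFC2 was at 79.8, 91.1, 79.2 and 93.4 CPM, and RFC5 at 65.5, 72.9, 56.1 and 66.8 CPM, again with siSALIS above siNC. Their log2 fold changes were 0.21 (SE 0.18) and 0.20 (SE 0.19). RFC3 was also higher in both replicates, by 0.14 and 0.26 (log2 CPM), but siNC and siSALIS overlapped since replicate 2 was low (log2 fold change -0.39, SE 0.14, adjusted p = 0.0942). RFC4 was lower in siSALIS in both replicates, by 0.033 and 0.062, and RFC1 differed by 0.097 and -0.14. The summed level of the role was 11.8% and 6.75% higher in siSALIS. No member of the group passed either test.

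Single-strand binding showed the widest split of the 9 roles between siSALIS and siNC. RPA1, RPA2 and RPA3 encode the 3 subunits of replication protein A, which coats unwound DNA and works as a trimer. RPA3, the smallest subunit (chromosome 7, 7676194 to 7758238, minus strand), was at 20.8 CPM in siNC replicate 1, 32.5 CPM in siSALIS replicate 1, 26.5 CPM in siNC replicate 2 and 34.7 CPM in siSALIS replicate 2. Both siSALIS libraries were above both siNC libraries. Its log2 fold change was 0.51 (SE 0.21, 95% interval 0.035 to 0.98), with an unadjusted p of 0.0380 and an adjusted p of 0.999846 in edgeR's quasi-likelihood test. It was the one member with an unadjusted p under 0.05 in this fit, which has no block for the replicate number. With that block its log2 fold change was 0.51 (SE 0.14, adjusted p = 0.0344 in the same test). In that fit 3 members had an unadjusted p under 0.05, as had 2005 of the 23942 genes. RPA2 (chromosome 1, 28218035 to 28241308, minus strand) was at 55.3, 64.2, 47.1 and 37.2 CPM in the same order. Both libraries of replicate 2 were low, whereas siSALIS was higher than siNC by 0.21 in replicate 1 and lower by 0.34 in replicate 2 (log2 CPM). Its log2 fold change was -0.50 in replicate 2 (SE 0.15, adjusted p = 0.0438) and -0.017 in siSALIS (SE 0.26). RPA1, the large subunit that binds DNA, had -0.058 in siSALIS (SE 0.18) and 0.092 in replicate 2 (SE 0.11).

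**Figure D4:**
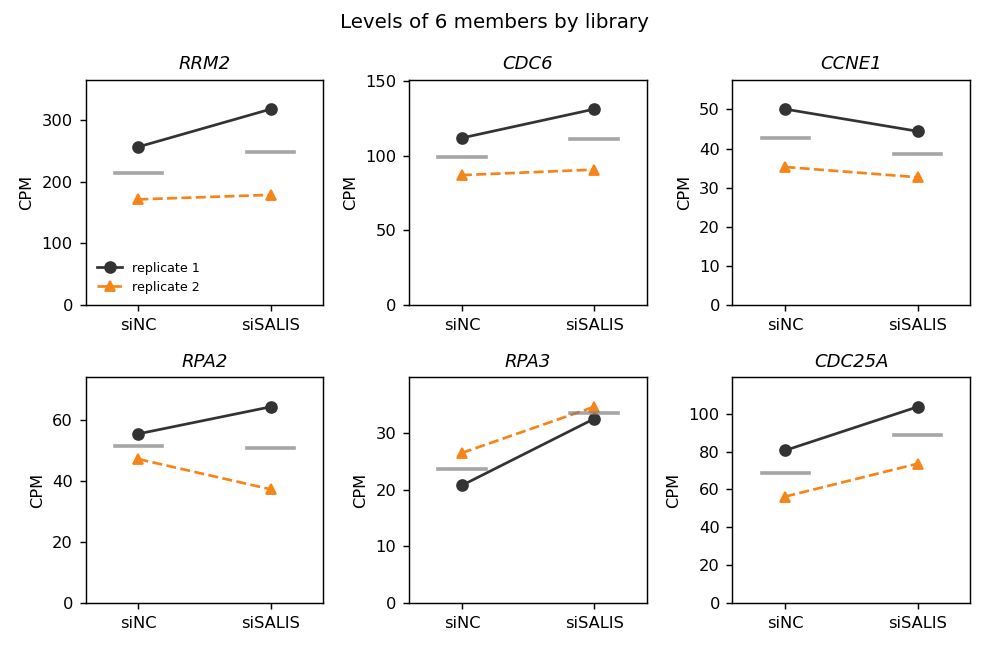
CPM of RRM2, CDC6, CCNE1, RPA2, RPA3 and CDC25A in siNC and siSALIS, with lines joining the libraries of replicate 1 (circles) and replicate 2 (triangles) and grey bars at the mean of each condition (n = 2). RPA3 and CDC25A are higher in siSALIS along both lines, and the lines of RPA2 run in opposite directions.

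FEN1 and LIG1 trim and seal Okazaki fragments on the lagging strand. FEN1 was higher in siSALIS by 0.15 and 0.14 in replicates 1 and 2 (log2 CPM) and LIG1 by 0.0038 and 0.019. Their log2 fold changes in siSALIS were 0.14 (SE 0.19) and 0.012 (SE 0.18). Between replicates they had opposite signs, -0.18 for FEN1 and 0.14 for LIG1, with SEs of 0.12 and 0.13, and neither passed.

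All 4 G1/S drivers were lower in replicate 2, in siNC and in siSALIS alike, as were 5119 of the 11779 genes. CCNE1 encodes cyclin E1, which activates CDK2 at the entry into S phase (chromosome 19, 30302901 to 30315224, plus strand). It was at 50.1 CPM in siNC replicate 1, 44.4 CPM in siSALIS replicate 1, 35.3 CPM in siNC replicate 2 and 32.7 CPM in siSALIS replicate 2. Replicate 2 was low without overlap, and siNC and siSALIS overlapped. The log2 fold change was -0.48 in replicate 2 (SE 0.14, adjusted p = 0.0424) and -0.15 in siSALIS (SE 0.24, adjusted p = 0.999846). CCNE2, the second cyclin E gene, was at 24.2, 27.6, 20.5 and 20.5 CPM, with both low values in replicate 2 (log2 fold change -0.34, SE 0.15, adjusted p = 0.186). E2F1, the transcription factor that drives many of the members, was at 97.9, 99.9, 76.4 and 84.4 CPM, again low in replicate 2 (log2 fold change -0.30, SE 0.12, adjusted p = 0.151). CDC25A, the phosphatase that removes the inhibitory phosphate from CDK2, lay just outside the threshold between replicates (log2 fold change -0.50, SE 0.15, adjusted p = 0.0536). It was higher in siSALIS by 0.36 and 0.39 in replicates 1 and 2 (log2 CPM), though siNC and siSALIS overlapped. The fitted difference in siSALIS was 0.37 (SE 0.24, adjusted p = 0.999846). The median log2 fold change of the drivers in replicate 2 was -0.41, the lowest of the 9 roles.

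Both genes of replication-coupled chromatin were also below replicate 1 in both conditions. UHRF1, which brings the maintenance DNA methyltransferase to newly copied DNA, had a log2 fold change of -0.35 in replicate 2 (SE 0.11, adjusted p = 0.0680). CHAF1A, a subunit of the histone chaperone CAF-1, had -0.24 (SE 0.12, adjusted p = 0.246). In siSALIS they had -0.011 (SE 0.21) and 0.17 (SE 0.19).

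Of the 4 members lower in replicate 2, CDC6 had 1 E2F match in its RefSeq window and RRM2 and CCNE1 had none. RPA2 was not in the promoter table. No match says only that these letters are not in this window.

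The other genes of the pathway were counted in the same fits. Among 43 further replication genes 0 passed in siSALIS, and between replicates 7 were lower and 0 higher. Of the 11779 genes with a mean of at least 5 CPM, 8.52% were lower and 6.08% higher. All genes of this list and of the lists below belong to them. The lowest of the 43 was CHTF18, part of an alternative clamp loader (log2 fold change -1.09, SE 0.12, adjusted p = 0.000122). The small polymerase epsilon subunits POLE4 and POLE3 had -0.78 and -0.66, CTPS1, which makes CTP, -0.56, and RECQL4, a helicase that helps origins fire, -0.56. Their median was -0.13 in replicate 2, beside -0.18 for the 39 members. In siSALIS their median was 0.047, beside 0.08.

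Among 30 G1/S regulators 0 passed in siSALIS, and between replicates 4 were lower (8.52% of the 11779 genes) and 1 higher (6.08%). CCND1, cyclin D1, which starts the release of E2F, had -0.86 (SE 0.18, adjusted p = 0.00907), and its kinase partner CDK6 had -0.54 (SE 0.12, adjusted p = 0.00976). CDKN1A, the p21 inhibitor of cyclin-dependent kinases, was the one that was higher, with 0.74 (SE 0.19, adjusted p = 0.0267). In siSALIS CDKN1A had -0.58 (SE 0.31, adjusted p = 0.999846), and CCND1 had -0.37 (SE 0.37, adjusted p = 0.999846).

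The 26 G2/M genes differed from the members in their medians. Between replicates 1 was lower, CENPE, a kinesin of the kinetochore, with -0.73 (SE 0.16, adjusted p = 0.0106), 0 were higher, and the median was 0.035. MKI67, a general marker of cycling cells, had 0.29 in replicate 2 (SE 0.12, adjusted p = 0.147) and -0.18 in siSALIS (SE 0.21, adjusted p = 0.999846). Within replicate 2 the median difference between siSALIS and siNC was -0.22 for the G2/M genes, with 23 of 26 lower. It was 0.060 for the 39 members, with 15 of 39 lower. Over the 11779 genes with a mean of at least 5 CPM it was -0.011, with 6105 lower. Within replicate 1 the medians were 0.033 for the G2/M genes and 0.12 for the members. These values rest on 1 library against 1, and the difference between the lists was not tested.

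**Figure D5:**
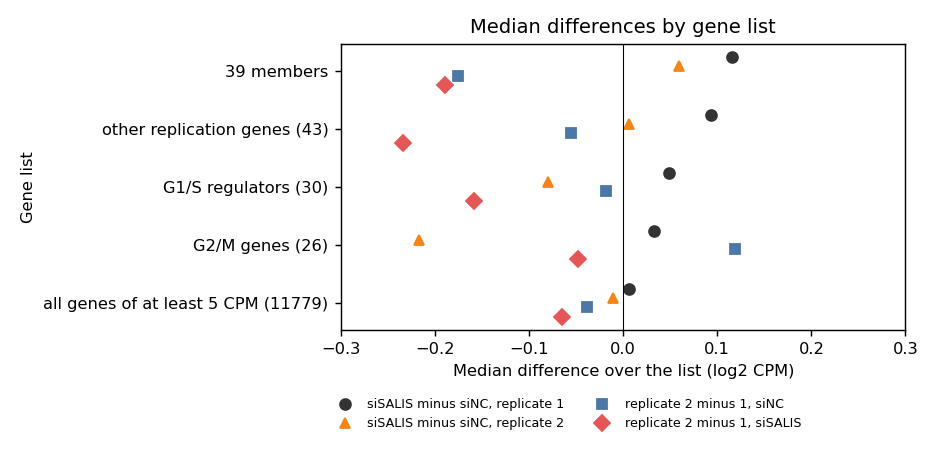
Median difference (log2 CPM) over the 39 members, 3 lists of related genes and all genes with a mean of at least 5 CPM, between siSALIS and siNC in each replicate and between replicate 2 and replicate 1 in each condition. The members lie right of 0 in both siSALIS differences and left of 0 in both replicate differences, and the G2/M genes lie at -0.22 in siSALIS replicate 2.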

How the data were processed

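RNA-seq libraries of siNC and siSALIS cells, 2 per condition, were grouped by their labels. Libraries were enriched for poly(A) RNA. The authors deposited an unnormalized count per gene and a TPM value. TPM is the count per gene length, scaled so that these values sum to 1000000 over all genes of a library. Counts and TPM were tied to within 2.91e-05 TPM. The submitters' processing notes name hg19, HISAT2, HISAT, TopHat2 and Bowtie2 without roles. The counting program is not given in the sources used here, nor how overlapping or near-identical genes were treated.

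Genes whose counts summed to 5 or more were scaled by TMM and tested with edgeR 4.0.16 (quasi-likelihood test without a block, R 4.3.3), with Benjamini-Hochberg adjustment over 23942 genes. CPM used TMM-scaled library sizes, and log2 CPM a prior count of 2. Promoters were read from RefSeq tables with Python 3.11.15. The fits were checked on simulated data whose known changes were larger than any reported here for a member. The simulated libraries held no other difference, such as one between replicates in the siSALIS comparison. The check therefore does not cover changes of the members' size. The study calls the replicates biological repeats, and the labels add nothing on their cultures.

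The members and lists were chosen with earlier results of these data known. Values in every library are given for members with an adjusted p under 0.05 in either comparison, for up to 6 members in each direction whose siSALIS libraries lay beyond both siNC libraries, and for E2F1, CCNE1, CCNE2, PCNA, MCM2, MCM5, CDC6, CDT1, RRM2 and TYMS. From the other lists the 8 smallest p between replicates, CDKN1A, CCND1 and MKI67 were named. Alternatives were DESeq2's size factors, DESeq2 1.42.0, edgeR's filterByExpr (minimum count 10), a minimum of 1 count in 1 library, a block for the replicate number, TPM with a pseudocount of 0.5, a prior count of 0.5, and each library left out.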

Additional observations from a re-analysis of the deposited data

Results flagged for a closer look

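For 3 members siSALIS and siNC differed in opposite directions in the 2 replicates, with at least 1 difference past 0.3 in log2 CPM. RPA2 differed by 0.21 in replicate 1 and -0.34 in replicate 2, a gap of -0.55. GINS3 differed by -0.15 and 0.37, a gap of 0.52, and POLA1 by -0.32 and 0.13, a gap of 0.45. With 1 library per condition in each replicate the gaps were not tested.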

How the results depend on the processing

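The siSALIS comparison called 0 members under DESeq2 (its Wald test, or its size factors in edgeR), both other filters and each library left out. All genes called numbered 5 with at least 1 count in any library and 1 in DESeq2, and 0 to 6 with a library left out. The median of the members ran from -0.019 to 0.18 with a library left out, negative only without siSALIS replicate 1, and from 0.076 to 0.085 otherwise. In TPM the within-replicate median was -0.14 in replicate 1. For RPA2 the siSALIS value ran from -0.46 to 0.32 with a library left out, positive without siSALIS replicate 2 and without siNC replicate 1. RRM2, CDC6, CCNE1, E2F1, CCNE2 and TYMS also changed sign in siSALIS with 1 library or another left out, RRM2 between -0.26 and 0.56, and none of the 18 members described in every library had an adjusted p under 0.05 there.

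With the replicate number as a block, 278 genes and 1 member (RPA3, adjusted p = 0.0344) were called in siSALIS. Same-numbered libraries deviated together from their group means (r = 0.678 over 11779 genes, which are not independent), and the first principal component (68.1%) separated the numbers, but with 2 pairs the numbers are not known to pair the samples.

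Between replicates, treatment as a term gave 4191 genes, of which 2286 were lower in replicate 2, and 9 members, all lower. With a library left out, 1294 to 3332 genes and 1 to 6 members were called, with RRM2 alone left without siSALIS replicate 1, and the members' median ran from -0.26 to -0.12. RRM2 was lower in every alternative run for it (adjusted p at most 0.0266). The adjusted p reached 0.337 for CDC6, 0.296 for CCNE1 and 0.283 for RPA2 with a library left out. Of those 18, RPA3, RFC2, GINS1, MCM3, MCM5, GINS4, PCNA and CDT1 changed sign with a library left out: RPA3 ran from -0.088 (without siNC replicate 1; -0.0062 without siSALIS replicate 2) to 0.56, and GINS1 from -0.26 (without siSALIS replicate 2) to 0.28. The cause was not tested. The bounds of the members' intervals in siSALIS had medians of -0.39 and 0.54.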
